A study of Mus musculus with 16 samples.

Results

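The sterol and fatty acid synthesis genes are 33 named genes of the 17721 in the count table, and each of the 33 had a row. They were listed by symbol, with earlier results of these data known. They fall into a sterol arm of 18 genes, a fatty acid arm of 12 genes and 3 regulators (Insig1, Srebf1 and Srebf2). The cells came from 16 single pieces of mouse mammary gland at puberty: 4 nipples, 6 ducts and 6 terminal end buds (TEBs), the club-shaped tips by which the ductal tree grows into the fat pad. The labels give the strain C57BL/6, and the study's methods name mice that carried K14-Cre, a recombinase driven by the keratin 14 promoter of basal epithelium, with the R26-mTmG colour reporter; all 3 locations share these alleles, and none was treated. Single cells were sorted into plate wells, and the 3' ends of their transcripts were counted with unique molecular identifiers (UMIs), so a level needs no division by transcript length. Levels are given in CPM, the gene's share of the summed UMIs on the usual fixed scale. The mouse behind each fragment was not given, so the p-values treat the fragments as independent and measure only the spread between them. No nipple fragment shares a label number with a duct or TEB fragment, and what the numbers stand for was not given. Anything that goes with them cannot be told apart from location. Fragments are named by the location (N, D or T) and the number in their label.

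The table held 1419 cells, of which 1318 passed the filters on depth, genes and spike-in share. Total UMIs per fragment ranged from 1856141 to 5233122, with a median of 29384 per cell. The 95 well names all recurred in more than 1 fragment, since they name plate positions.

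Cholesterol is built from acetyl-CoA through the mevalonate route: cytosolic acetyl-CoA is condensed and reduced to mevalonate, phosphorylated and decarboxylated to isoprene units, joined to farnesyl diphosphate and squalene, and closed to lanosterol, from which demethylation, reduction and isomerisation lead to cholesterol. Fatty acids start from the same acetyl-CoA, which is carboxylated, extended to palmitate, and then elongated, desaturated and activated to acyl-CoA. Both arms are switched on by SREBP transcription factors, the products of Srebf1 and Srebf2, which Insig1 holds in the endoplasmic reticulum when sterols are plentiful. In the mammary gland these routes are best known for the lipid of milk, and a growing epithelium also draws on them for membrane.

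Promoter sequence (RefSeq, GRCm38.p6, from 250 bases before to 50 after each start) was matched for 27 of the 33 genes. Fdps, Sqle, Fdft1, Scd1, Scd2 and Fads1 were without an entry. A form of the sterol regulatory element spelled TCACNCCAC, searched on both strands, occurred in 1 of the 27 (Hmgcs1). It occurred in 1.44% of 27025 genes and in 1.24% of 32851 mouse promoters. The CCAAT box, bound by NF-Y, was searched as CCAAT on both strands and occurred in 23 of the 27 genes (14 of 15 sterol, 6 of 9 fatty acid and 3 of 3 regulator genes), against 41.1% of 27025 genes and 37.4% of promoters. The E-box CACGTG occurred in 5 of the 27 and in 8.09% of all genes. The windows shown are from genes that differ between locations below, with the motif in capitals (TCACNCCAC in the first, CCAAT or its complement ATTGG in the others); a match is a description of the letters, not evidence of binding. The first window is Hmgcs1, on the forward strand at chr13:119690204-119690233, with the motif starting at -137 from the transcript start. Those of Mvk (chr5:114444207-114444236), Pmvk (chr3:89454393-89454422), Nsdhl (chrX:72918489-72918518), Elovl1 (chr4:118428046-118428075) and Acsl3 (chr1:78657798-78657827) are also on the forward strand, and those of Mvd (chr8:122443432-122443461) and Cyp51 (chr5:4104709-4104738) on the reverse strand.
Hmgcs1: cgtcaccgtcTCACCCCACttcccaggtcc
Mvk: ttaatgtttgacCCAATctgtaaaggagcc
Pmvk: aactcaggttggCCAATtcacagcatctag
Mvd: ccggccagcgggCCAATcatatggcagcgc
Cyp51: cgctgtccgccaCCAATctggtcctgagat
Nsdhl: aagactagcctcATTGGgcaaaatcatgct
Elovl1: tcggccagccgcCCAATcagcaggcgcccc
Acsl3: accgcccgcgggCCAATgggcggcggtctc
The windows were chosen because they hold a motif. The box in genes higher in TEB fragments and in genes higher in nipple fragments is therefore no result about location.

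Cells were grouped by clustering without the 33 genes and the other listed pathway genes. The classes were 294 basal-like cells, 426 ER+ luminal-like cells (oestrogen receptor positive), 178 ER- luminal-like cells and 252 fibroblast-like cells. Pooled basal-like cells held Krt14 at 3145 CPM, Acta2 at 5030.1 CPM and Krt5 at 1099 CPM, with the luminal markers Krt8 at 2319.7 CPM and Esr1 at 1.36 CPM. The basal-like cells of nipple and duct fragments came almost wholly from 1 cluster (96 and 115 cells, with 1 TEB cell) and those of TEB fragments from another (81 cells, with 1 nipple cell), so location and cluster cannot be told apart in this class. All 12 basal markers had UMIs at each location, but no basal marker was among the 10 genes with the highest fold in the TEB cluster. UMIs were summed per fragment and class, with at least 5 cells required, and tested with edgeR across all genes that passed a filter on low counts.

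In basal-like cells, mRNAs of 8 sterol genes were lower in the nipple than in the TEBs, while the other sterol genes were not called. The desaturases Scd2, Fads1 and Fads2 went the same way, as a description only. Of the 18 sterol genes, 14 passed the count filter, and 8 of the 14 were higher in TEB fragments, none in nipple fragments. The 8 include Mvk, Mvd and Nsdhl, whose nipple counts were too low for the filter, so they passed it through TEB and duct fragments. Their part in this count and in the median below is a description. Among all 7316 genes tested in this class, 9.81% were higher in TEB and 8.90% higher in nipple. Over those that passed, the median log2 difference, nipple minus TEB, was -1.91 for the sterol genes and -0.05 for all genes. Idi1, Lss, Tm7sf2 and Dhcr7 were too low to test.

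The genes of the mevalonate route come first in this arm. Hmgcs1, the synthase that makes HMG-CoA, stood at 11.9, 26.5, 37.7 and 61.3 CPM in the 4 nipple fragments and at 51.1 to 176 CPM (median 95.01) in the 6 TEB fragments. Its log2 difference was -1.56 ± 0.48 (SE, adjusted p = 0.019), and the groups overlapped by the highest nipple fragment. Mevalonate kinase, Mvk, was counted with 3 UMIs over all nipple fragments, all of them in N22 (4.97 CPM), and with 102 over the TEB fragments, where it ran from 11.4 to 63.9 CPM. The ratio of the pooled rates was 17.8 (exact 95% interval 5.91 to 87.6, counting error only), and the adjusted p was 0.020. No nipple fragment reached the lowest TEB fragment. Mvk passed the count filter through the TEB fragments and D61, the ones where it was high, so its place among the genes called is a description and supports nothing. Phosphomevalonate kinase, Pmvk, stood at 0, 26.5, 17.6 and 19.1 CPM in nipple and at 33.2 to 91.3 CPM (median 63.9) in TEB fragments, again without overlap (-1.92 ± 0.67, adjusted p = 0.040).

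Mvd, the decarboxylase that yields isopentenyl diphosphate, was at 1.99, 0, 0 and 3.83 CPM in nipple fragments, at 0 to 37.9 CPM (median 9.85) in ducts and at 12.3 to 66.0 CPM (median 39.1) in TEBs. Here too 3 UMIs in nipple faced 122 in TEB fragments, a ratio of 21.3 (7.11 to 105) with an adjusted p of 0.0050, and the groups stayed apart. Like Mvk, Mvd passed the count filter through fragments of the other locations, so its call is a description as well. Acat2, which condenses acetyl-CoA at the entry of the route, did not pass the test (-1.89, adjusted p = 0.090).

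Fdps, the farnesyl diphosphate synthase, had the smallest p of the arm. It was counted at 9.95, 48.1, 7.54 and 40.2 CPM in nipple fragments, at 15.2 to 54.0 CPM (median 33.4) in duct fragments and at 70.2 to 159 CPM (median 123) in TEB fragments. Every TEB fragment lay above every nipple and duct fragment, and nipple and duct overlapped throughout. The log2 difference was -2.15 ± 0.49 for nipple minus TEB (adjusted p = 0.0016) and -1.91 ± 0.42 for duct minus TEB (adjusted p = 0.0017). Fdft1, the squalene synthase, stood at 17.9, 28.2, 10.05 and 30.6 CPM in nipple, at 2.29 to 41.7 CPM (median 37.0) in duct and at 35.1 to 133 CPM (median 87.96) in TEB fragments. It passed against the nipple without overlap (-1.98 ± 0.56, adjusted p = 0.011) and against the duct with overlap by 1 TEB fragment, T43 (-1.59 ± 0.48, adjusted p = 0.026). Exons of Fdft1 overlap Ctsb on the other strand, and whether the counting used strand is not given in the sources used here. Sqle, the squalene epoxidase that commits squalene to sterols, did not follow: it averaged 123 ± 62.9 CPM (SD, n = 4) in nipple and 103 ± 42.3 CPM (n = 6) in TEB fragments (0.27, adjusted p = 0.71).

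Of the enzymes after lanosterol, Cyp51, the lanosterol demethylase, was at 31.8, 24.9, 62.8 and 51.7 CPM in nipple fragments and at 66.0 to 218 CPM (median 101) in TEBs, without overlap (-1.42 ± 0.42, adjusted p = 0.016). Its exons overlap Akap9 on the other strand. Nsdhl, a dehydrogenase of sterol demethylation, was at 7.96, 3.32, 0 and 0 CPM in nipple and at 0 to 72.6 CPM (median 25.5) in TEB fragments, with overlap because T32 had none (-3.25 ± 1.10, adjusted p = 0.034). It too passed the count filter through TEB and duct fragments, so its call is a description. Hsd17b7, the reductase of the same step, did not pass (-2.31, adjusted p = 0.089). Msmo1 (-0.65), Sc5d (-0.27) and the isomerase Ebp (0.10) had adjusted p-values of 0.36, 0.76 and 0.93. Ebp was at 33.8, 63.0, 75.4 and 61.3 CPM in nipple fragments, at 15.1 to 68.6 CPM (median 45.7) in ducts and at 16.0 to 101 CPM (median 51.4) in TEBs. Msmo1 was at 55.7, 92.9, 35.2 and 17.2 CPM in nipple fragments, at 32.02 to 132 CPM (median 79.1) in ducts and at 44.6 to 102 CPM (median 85.3) in TEBs. For both genes the 3 locations overlapped.

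**Figure D1:**
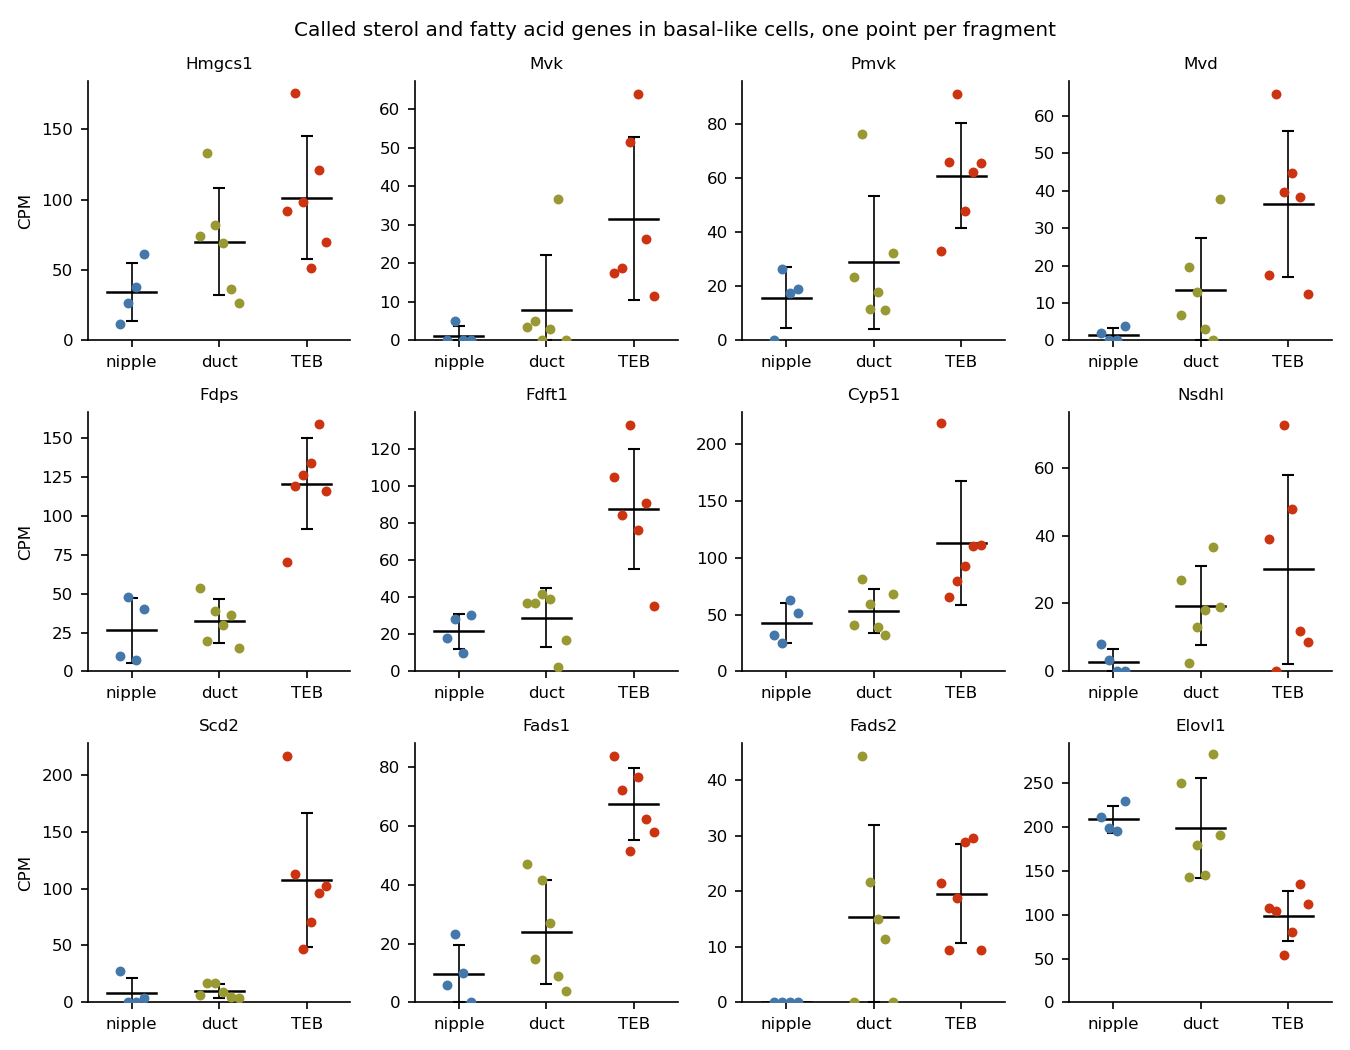
Level in CPM of the 12 members that passed the nipple against TEB test in basal-like cells, one point per fragment with the mean (line) and SD (bars); each panel has its own axis from 0. The TEB points stand above the nipple points in 11 panels, with overlap for Hmgcs1 and Nsdhl, and below them for Elovl1 (53.8 to 135 against 196 to 229.7 CPM), whose log2 difference turns to -0.23 with spike-in scaling.

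The low sterol genes had few UMIs behind them. Lss, the lanosterol synthase, had 1 UMI in nipple and 48 in TEB basal-like cells, a ratio of 25.1 with an exact 95% interval of 4.29 to 1012. Idi1, the isopentenyl diphosphate isomerase, had 0 against 12 UMIs, at least 2.09-fold higher in TEBs at the floor of 3 UMIs over a location. Tm7sf2, a sterol reductase, had 2 against 17 UMIs (4.44, interval 1.05 to 39.7), and Dhcr7, the last reductase of the route, had 6 against 54 UMIs. These 4 genes had no test.

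Several calls were near the threshold and were lost when any of several fragments was left out, while the differences kept their sign. The Cyp51 call was lost without N21, N22 or T31 (adjusted p 0.057 to 0.068, log2 difference -1.28 to -1.12), and that of Hmgcs1 without N21, N22 or T32 (0.053 to 0.083, -1.44 to -1.25). Mvk was lost without N21, N23 or N24 (0.056 to 0.060, -3.98 to -3.92), and it was too low to test without D61, T33, T34 or T42. Nsdhl was lost without N22, N23, N24, T31, T33 or T34 (0.055 to 0.097, -3.33 to -2.76), and Pmvk without N21, N23, N24, T32, T33, T42 or T43 (0.057 to 0.112, -2.02 to -1.50). Fdps, Mvd and Fdft1 kept their calls in all 16 omissions, with the limit given above for Mvd.

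In the fatty acid arm of basal-like cells, 10 of 12 genes were tested between nipple and TEB, with Acaca and Acss2 too low. The desaturases Scd2, Fads1 and Fads2 were higher in TEB fragments, and Elovl1 was higher in nipple fragments. The median over the 10 was -0.58. Scd2, Fads1, Fads2 and Elovl6 passed the count filter mainly through TEB or duct fragments, so their part in this median is a description. Scd2, a stearoyl-CoA desaturase that makes monounsaturated fatty acids, was at 27.9, 0, 0 and 3.83 CPM in nipple fragments, at 3.79 to 17.3 CPM (median 7.90) in ducts and at 46.8 to 217 CPM (median 99.2) in TEBs. All TEB fragments exceeded all others. Scd2 passed the count filter through the TEB fragments, where it was high, so its calls against nipple and duct are a description. Its log2 difference was -3.72 ± 0.75 against the nipple (adjusted p = 0.00042, and -6.11 without N21, which held most of the nipple UMIs) and -3.40 ± 0.63 against the duct (adjusted p = 0.00017). Scd1, its close paralog, showed no such difference between nipple and TEB (0.10 ± 0.80, adjusted p = 0.95); only reads that mapped to a single place were kept by the study, so reads shared by both paralogs were not counted.

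Fads1, the delta-5 desaturase of polyunsaturated fatty acids, was at 5.97, 23.2, 10.05 and 0 CPM in nipple, 3.79 to 47.2 CPM (median 20.95) in duct and 51.5 to 83.9 CPM (median 67.3) in TEB fragments. The TEB fragments lay above both other groups, and the test passed against the nipple (-2.72 ± 0.72, adjusted p = 0.0060) but not against the duct (-1.49, adjusted p = 0.098). Fads1 passed the count filter mainly through TEB and duct fragments, so its call is a description. Fads2, the delta-6 desaturase, had no UMI in any of the 4 nipple fragments, 43 UMIs over the ducts (0 to 44.3 CPM, median 13.3) and 78 over the TEBs (9.42 to 29.6 CPM, median 20.1). At the floor of 3 UMIs over the nipple fragments it was at least 13.6-fold higher in TEBs (adjusted p = 0.0056) and at least 10.8-fold higher in ducts (adjusted p = 0.022). Fads2 passed the count filter through TEB and duct fragments, where it was counted, so both calls are a description. From RNA of other wells of the same plates, 0.596 Fads2 UMIs were to be expected in the nipple cells. The difference between nipple and duct was lost without N21, N22, N24 or D32 (adjusted p 0.052 to 0.061).

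Elovl1, the elongase of saturated very long chains, went the other way on this scale. It was at 211, 199, 196 and 229.7 CPM in nipple fragments, at 143 to 284 CPM (median 186) in ducts and at 53.8 to 135 CPM (median 105) in TEBs. TEB fragments lay below all others, with log2 differences of 1.06 ± 0.27 for nipple minus TEB (adjusted p = 0.0044) and 0.99 ± 0.25 for duct minus TEB (adjusted p = 0.0059), although nipple minus TEB became -0.23 when sums were scaled to the spike-in RNA. Exons of Elovl1 overlap Cdc20, a mitotic gene on the other strand, and reads of the pair cannot be told apart without strand. The carriers of the basic route did not pass: Fasn, the fatty acid synthase, differed by 0.03 ± 0.68 (adjusted p = 0.98), Elovl5 by -0.996 (adjusted p = 0.32) and Elovl6 by -2.82 (adjusted p = 0.15). Acly, which makes cytosolic acetyl-CoA from citrate, was at 69.7, 46.4, 50.2 and 19.1 CPM in nipple, 13.5 to 59.1 CPM (median 26.3) in duct and 15.7 to 70.3 CPM (median 44.8) in TEB fragments. Acsl3, a ligase that activates long-chain fatty acids to acyl-CoA, was at 179, 81.2, 100.5 and 111 CPM in nipple, 45.2 to 125 CPM (median 66.0) in duct and 107 to 167 CPM (median 122) in TEB fragments. Neither gene passed the test between nipple and TEB, and their groups overlapped (adjusted p = 0.89 and 0.81).

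The regulators did not pass in basal-like cells. Insig1, itself a target of the SREBPs, was at 5.97, 23.2, 2.51 and 3.83 CPM in nipple, at 0 to 33.1 CPM (median 4.18) in duct and at 13.3 to 63.9 CPM (median 38.1) in TEB fragments (nipple minus TEB -1.98 ± 0.94, adjusted p = 0.15). Srebf1, whose product serves mainly the fatty acid arm, was at 59.7, 24.9, 30.1 and 9.57 CPM in nipple, 23.6 to 80.0 CPM (median 40.5) in duct and 34.6 to 92.7 CPM (median 60.4) in TEB fragments (-0.97, adjusted p = 0.21). Srebf2, whose product serves mainly the sterol arm, was at 9.95, 58.0, 67.8 and 30.6 CPM in nipple, 18.7 to 66.5 CPM (median 23.8) in duct and 28.3 to 80.0 CPM (median 48.9) in TEB fragments (-0.25, adjusted p = 0.81). For the 3 regulators the groups overlapped, and SREBP activity is set largely by cleavage of the protein, which mRNA does not show.

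Between duct and TEB, 3 members were higher in TEBs (Fdps, Fdft1 and Scd2, of 27 tested) and 1 in ducts (Elovl1); of all genes, 3.91% were higher in TEB and 6.48% in duct fragments. The call of Scd2 is a description, as given above. All 14 sterol genes tested had a negative difference, a count given without the share of all genes and so only a description. Their median was -0.75 against -0.04 for all genes, but only 2 of them passed. Mvk, Mvd and Nsdhl are part of this median with the limit given above. Fdft1 lost its call without D62, T31, T33 or T42 (adjusted p 0.051 to 0.072). Between nipple and duct the only member called was Fads2, higher in ducts, where 4.06% of all genes were called; none was higher in the nipple, where 2.23% of all genes were.

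Other measures moved with location in the same cells. The summed level of the 12 basal markers, all of them detected, was 19035 to 21934 CPM in nipple, 24266 to 32601 CPM in duct and 4350 to 8467 CPM in TEB basal-like cells. The summed level of 94 cell-cycle genes was 1850 to 2299 CPM in nipple, 2740 to 3661 CPM in duct and 3621 to 7820 CPM in TEB basal-like cells, and the share of cells scored as G1 was 72.2%, 61.7% and 54.9%. The 12 ER+ luminal markers summed to 3971 to 5341 CPM in nipple, 6880 to 8670 CPM in duct and 2190 to 2963 CPM in TEB basal-like cells, all of them detected, and the 13 ER- luminal markers (11, 11 and 13 detected) to 5889 to 6541, 7934 to 11136 and 3506 to 4879 CPM. The 9 fibroblast markers summed to 993 to 2072 CPM in nipple (8 of 9 detected), against 348 to 512 CPM in duct and 380 to 599 CPM in TEB cells. Of the 5 adipocyte markers in the table, none had a UMI in nipple basal-like cells, and their sum reached at most 11.7 CPM in a TEB fragment. The part of these measures in the differences was not tested, except that of cell cycle phase, of thinly filled fragments and of RNA from other wells. Other wells gave an estimated 6.02 to 10.7% of UMIs in nipple, 6.77 to 21.2% in duct and 6.03 to 28.3% in TEB fragments. With these UMIs subtracted, the nipple to TEB calls of Pmvk and Nsdhl were lost, while their differences kept their sign. With cells scored as G1 alone, 18 members could be tested and only Cyp51 was called (-1.94, adjusted p = 0.028); the median of the 9 sterol genes tested was -0.68, against -1.42 for the same 9 genes with all cells. In G1 cells Fdps differed by -1.96, Pmvk by -1.76, Fads1 by -2.42 and Scd2 by -2.43 without passing (adjusted p = 0.15, 0.16, 0.074 and 0.16), and 11.4% of all 5524 genes tested were called in either direction. With fragments of at least 10 basal-like cells, 7 of 25 members were called in place of 12 of 27.

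RNA content per cell also differed. Gene UMIs per spike-in UMI were 72.7 in nipple, 115 in duct and 159.9 in TEB basal-like cells, so CPM describes a gene's share of the mRNA and not copies per cell. With sums scaled to the spike-ins, the median of all genes between nipple and TEB moved from -0.05 to -1.35 and that of the sterol genes tested from -1.91 to -3.24. The median of the sterol genes tested was again below that of all genes. Of all genes, 141 were then higher in nipple and 3928 in TEB fragments, against 651 and 718 on the CPM scale.

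In ER+ luminal-like cells the sterol arm was not called between any 2 locations, and 2 genes of the fatty acid arm were higher in the nipple. Of 17 sterol genes tested, 0 passed in edgeR for nipple against TEB, with a median log2 difference of 0.21 and 2 genes at an unadjusted p under 0.05, and DESeq2 called 0 of the arm as well. In the fatty acid arm 2 of 9 passed, both higher in nipple fragments, as were 2.59% of all 8770 genes tested; 2.94% of all genes were higher in TEBs. Idi1, Fads1, Fads2 and Acss2 were too low to test in this class. The class joined 2 clusters that the locations filled unequally (16 and 27 nipple, 102 and 109 duct, 114 and 58 TEB cells); the part of this in the differences was not tested.

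Acsl3 was at 197, 163, 90.9 and 171 CPM in the nipple fragments of ER+ cells, at 35.6 to 92.5 CPM (median 68.6) in ducts and at 14.8 to 38.4 CPM (median 22.5) in TEBs. All nipple fragments lay above all TEB fragments, while duct fragments overlapped with both. The log2 difference was 2.70 ± 0.33 for nipple minus TEB (adjusted p = 8.7e-07), 1.27 ± 0.32 for nipple minus duct (adjusted p = 0.024) and 1.43 ± 0.30 for duct minus TEB (adjusted p = 0.0068). The first and the last held in all 16 omissions of a fragment, and the difference between nipple and duct was lost without N21, N22, N24, D61 or D62 (adjusted p 0.057 to 0.106). Acsl3 shares exon sequence with Utp14b on the same strand. Acsl3 was the only member called in the other pairs of ER+ cells, where 0.878% of all genes were higher in nipple and 1.13% in duct fragments, and where 1.07% were higher in duct and 0.582% in TEB fragments.

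Scd1, the main stearoyl-CoA desaturase of lipogenic tissues, was at 30.7, 52.03, 15.7 and 134 CPM in the nipple fragments, at 10.8 to 25.6 CPM (median 19.8) in the ducts and at 2.59 to 34.5 CPM (median 6.62) in the TEBs of ER+ cells. The groups overlapped, and the difference between nipple and TEB of 2.34 ± 0.59 (adjusted p = 0.013) fell to 1.45 without N24 (adjusted p = 0.22), so this call rested on 1 fragment. Its paralog Scd2 did not pass (0.93, adjusted p = 0.25). Elovl6, an elongase of palmitate, was lower in every nipple than in every TEB fragment but did not pass in edgeR (-2.12 ± 0.76, adjusted p = 0.099), while DESeq2 called it.

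The other genes with the highest means differed less by location in ER+ cells. Fdps stood at 173, 208, 178 and 171 CPM in nipple, 88.8 to 184 CPM (median 159) in duct and 107 to 221 CPM (median 153) in TEB fragments, a difference of 0.22 between nipple and TEB (adjusted p = 0.70). Ebp stood at 246, 279.7, 288 and 296 CPM in nipple, 139.8 to 303 CPM (median 168) in duct and 140.3 to 244 CPM (median 185) in TEB fragments. All nipple fragments were above all TEB fragments for Ebp, but the difference of 0.56 ± 0.20 did not pass (adjusted p = 0.11). Msmo1, a sterol demethylase, was at 65.0, 117, 129 and 51.5 CPM in nipple, 66.7 to 106 CPM (median 86.8) in duct and 39.9 to 73.7 CPM (median 59.8) in TEB fragments (0.63, adjusted p = 0.25). Elovl1 was at 211, 130.1, 227 and 101 CPM in nipple, 135 to 219 CPM (median 165) in duct and 109.9 to 163 CPM (median 144) in TEB fragments (0.24, adjusted p = 0.65). Both genes overlapped between the locations. Acly was at 52.4, 68.3, 80.4 and 70.9 CPM in nipple, 65.7 to 88.2 CPM (median 71.9) in duct and 54.6 to 144 CPM (median 68.0) in TEB fragments (-0.25, adjusted p = 0.72). Srebf1 was at 75.9, 45.5, 52.4 and 56.4 CPM in nipple, 33.3 to 66.4 CPM (median 45.1) in duct and 36.9 to 75.0 CPM (median 44.3) in TEB fragments. Neither gene separated the locations. Srebf2 was at 65.0, 32.5, 27.96 and 24.2 CPM in nipple, 15.4 to 60.6 CPM (median 34.5) in duct and 15.8 to 36.8 CPM (median 28.7) in TEB fragments. Insig1 was near the limit of detection in this class, at 5.42, 3.25, 10.5 and 9.66 CPM in nipple, 2.86 to 16.7 CPM (median 4.23) in duct and 0 to 13.9 CPM (median 4.10) in TEB fragments. The 3 regulators were not called in any pair.

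**Figure D2:**
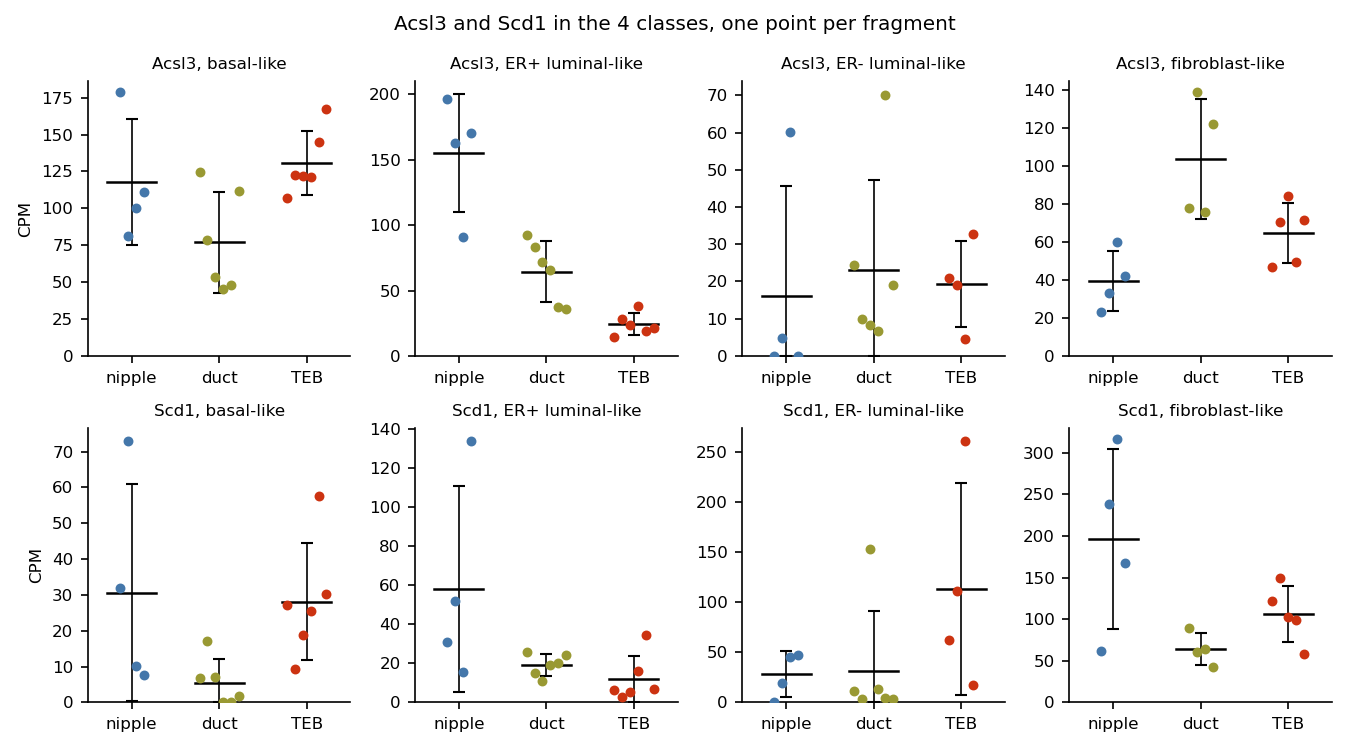
Acsl3 (top) and Scd1 (bottom) in CPM in the 4 classes, one point per fragment with mean (line) and SD (bars); each panel has its own axis from 0. Acsl3 in ER+ luminal-like cells runs from 90.9 to 197 CPM in nipple and from 14.8 to 38.4 CPM in TEB fragments, and no other panel shows nipple points above all TEB points.

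As in basal-like cells, the fibroblast markers were higher in the nipple: their 9 genes summed to 865 to 2232 CPM in nipple ER+ cells, 218 to 570.0 CPM in duct and 164 to 396 CPM in TEB ER+ cells. No adipocyte marker had a UMI in ER+ cells of any location. The part of other cells' RNA in the Acsl3 and Scd1 values was not tested beyond subtracting the UMIs estimated to come from other wells, which left 1 member called between nipple and TEB.

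In ER- luminal-like cells 17 members were tested and none was called in edgeR for any pair. The median log2 difference, nipple minus TEB, was -1.03 over 9 sterol genes and -1.64 over 5 fatty acid genes, against -0.03 for all genes. Both medians had the sign of those in basal-like cells (-1.91 and -0.58), which carry the limits given there. Between nipple and TEB 4 members had an unadjusted p under 0.05 and DESeq2 called 1, with 4.57% of all 5706 genes called in either direction. For nipple against duct 2 members reached an unadjusted p under 0.05 (1.63% of all genes called), and for duct against TEB 1 did (1.14% called), and DESeq2 called 0 in both. Insig1 was the member nearest to a call. It was at 0, 0, 4.81 and 0 CPM in nipple fragments, at 3.17 to 36.0 CPM (median 18.5) in ducts and at 41.7, 19.2, 59.4 and 34.2 CPM in TEBs, without overlap between nipple and TEB. With 2 against 61 UMIs the ratio was 18.9 (exact 95% interval 5.02 to 159.7), and the adjusted p was 0.053. Fdps stood at 13.4, 4.75, 125 and 101 CPM in nipple, 41.1 to 203 CPM (median 123) in duct and 31.2, 118, 256 and 169.6 CPM in TEB fragments (-1.15, adjusted p = 0.40). Msmo1 had the opposite sign, at 58.1, 128, 108 and 162 CPM in nipple, 60.2 to 154 CPM (median 115) in duct and 45.1, 43.8, 82.3 and 26.4 CPM in TEB fragments (1.25 ± 0.47, adjusted p = 0.14). The nipple and TEB fragments overlapped for both.

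Ebp in ER- cells was at 49.1, 38.0, 7.22 and 50.7 CPM in nipple, 57.5 to 88.1 CPM (median 68.6) in duct and 108, 41.0, 146 and 59.1 CPM in TEB fragments (-1.28, adjusted p = 0.26). Elovl1 was at 129.5, 242, 96.2 and 234 CPM in nipple, 115 to 287 CPM (median 208) in duct and 198, 157, 210.3 and 49.8 CPM in TEB fragments (0.21, adjusted p = 0.87). Ebp was higher in all ducts than in all nipples without passing the test (adjusted p = 0.54), and Elovl1 overlapped throughout. Acly was at 35.7, 85.4, 31.3 and 25.3 CPM in nipple, 28.8 to 83.7 CPM (median 40.9) in duct and 27.8, 28.7, 59.4 and 29.6 CPM in TEB fragments. Srebf1 was at 26.8, 19.0, 40.9 and 15.8 CPM in nipple, 16.4 to 52.4 CPM (median 30.2) in duct and 48.6, 68.4, 27.4 and 42.01 CPM in TEB fragments (-0.85, adjusted p = 0.61). Srebf2 was at 49.1, 56.9, 28.9 and 9.504 CPM in nipple, 6.54 to 43.9 CPM (median 31.3) in duct and 69.4, 57.5, 22.9 and 26.4 CPM in TEB fragments. These 3 genes overlapped between the locations. Acsl3, too low to test here, was at 0, 4.75, 60.1 and 0 CPM in nipple, 6.75 to 70.2 CPM (median 14.4) in duct and 20.8, 19.2, 4.57 and 32.7 CPM in TEB fragments.

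In fibroblast-like cells 25 members were tested, and edgeR again called none. The median log2 difference, nipple minus TEB, was -0.78 over 12 sterol genes and 0.07 over 10 fatty acid genes, against -0.02 for all genes. An unadjusted p under 0.05 was reached by 3 members for nipple against TEB, where DESeq2 called 0, by 6 for nipple against duct, where it called Acsl3, and by 2 for duct against TEB, where it called Srebf2. Of all 8489 genes, 1.54%, 0.200% and 0.271% were called in either direction in the 3 pairs, so few genes of any kind passed. Fibroblast-like cells of the nipple (86 of 116 cells) came mostly from a cluster that held no TEB cell, and those of the TEBs (64 cells) from another, so location and cluster are mixed here too.

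Insig1 was highest in this class, at 80.8, 59.8, 97.0 and 71.5 CPM in nipple, at 244, 102, 146 and 130.5 CPM in duct and at 139, 131, 148, 92.9 and 44.7 CPM in TEB fragments. Duct fragments lay above all nipple fragments without a call (nipple minus duct -0.98 ± 0.43, adjusted p = 0.40). Srebf2 was at 56.9, 15.5, 25.8 and 33.96 CPM in nipple, at 11.1, 6.03, 11.2 and 2.84 CPM in duct and at 65.6, 33.8, 66.0, 52.3 and 22.4 CPM in TEB fragments. Its duct fragments lay below all others (duct minus TEB -2.68 ± 0.78, adjusted p = 0.16), in sums of 31 duct cells in all. Srebf1 was at 17.0, 38.8, 6.98 and 25.9 CPM in nipple, 11.1, 30.1, 19.6 and 31.2 CPM in duct and 47.0, 57.0, 19.0, 23.2 and 17.9 CPM in TEB fragments. Fdps was at 48.9, 24.4, 26.5 and 41.1 CPM in nipple, 44.4, 36.2, 84.2 and 62.4 CPM in duct and 109.7, 48.3, 88.03, 40.7 and 109.6 CPM in TEB fragments (nipple minus TEB -1.17 ± 0.49, adjusted p = 0.36). Both overlapped between nipple and TEB.

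Acsl3 in fibroblast-like cells was at 22.9, 33.2, 60.0 and 42.003 CPM in nipple, 77.8, 139, 75.8 and 122 CPM in duct and 47.0, 70.6, 84.0, 49.4 and 71.5 CPM in TEB fragments (nipple minus duct -1.39, adjusted p = 0.25). The nipple fragments were its lowest group here, where they were its highest in ER+ cells. Acly was at 28.9, 58.7, 18.1 and 84.0 CPM in nipple, 66.7, 84.4, 132 and 145 CPM in duct and 57.8, 173, 98.0, 128 and 49.2 CPM in TEB fragments (nipple minus TEB -1.10, adjusted p = 0.43). Elovl1 was at 226, 188, 140.2 and 130.5 CPM in nipple, 77.8, 102, 154 and 235 CPM in duct and 258, 134, 82.0, 151 and 224 CPM in TEB fragments. The locations overlapped for both. Ebp was at 32.9, 17.7, 52.3 and 51.8 CPM in nipple, 88.9, 30.1, 19.6 and 68.1 CPM in duct and 75.4, 54.1, 116, 17.4 and 101 CPM in TEB fragments. Msmo1 was at 131, 48.7, 60.0 and 50.05 CPM in nipple, 133, 60.3, 107 and 45.4 CPM in duct and 117, 135, 174, 75.5 and 31.3 CPM in TEB fragments. Neither was called in any pair.

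**Figure D3:**
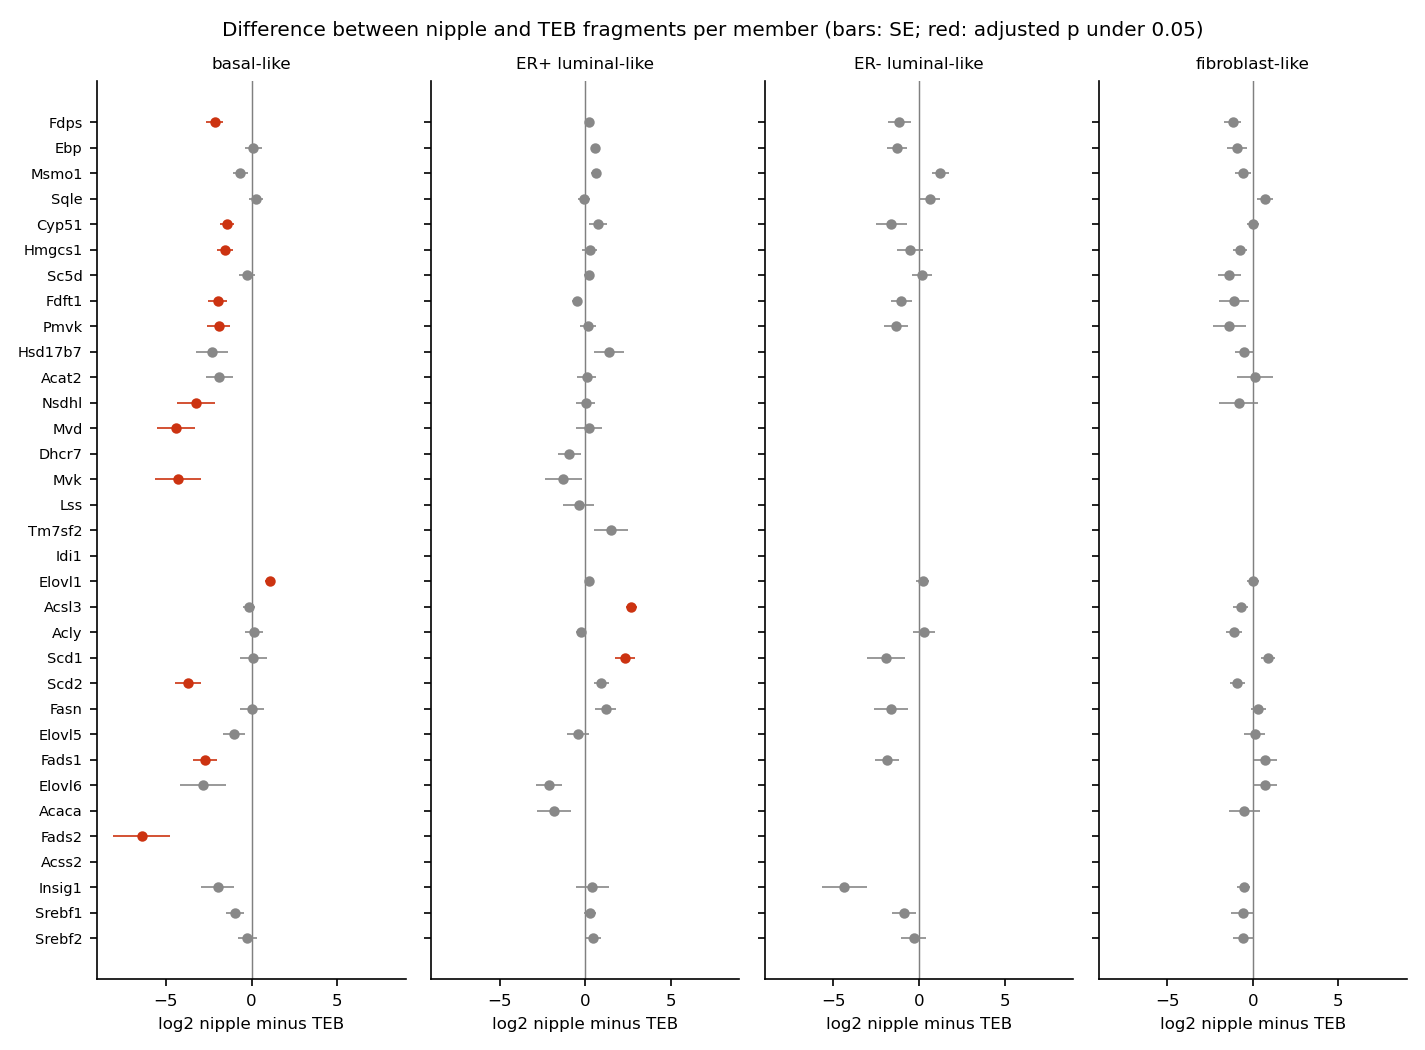
Log2 difference, nipple minus TEB, of each member tested in the 4 classes (points, with SE as bars; red marks an adjusted p under 0.05; members too low to test have no point). Red points lie left of 0 for 11 genes of basal-like cells and right of 0 for Elovl1 there (-0.23 with spike-in scaling) and for Acsl3 and Scd1 in ER+ luminal-like cells, and neither ER- luminal-like nor fibroblast-like cells have one.

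Whether the difference between nipple and TEB was itself unequal between classes was tested with a class by location term, with the fragment as a block. Against ER+ cells, 4 of 31 members passed, and 6.48% of all 9377 genes did. Scd2 (-5.22 ± 0.93, adjusted p = 0.00019), Fdps (-2.52 ± 0.49, adjusted p = 0.00069), Cyp51 (-2.21 ± 0.67, adjusted p = 0.041) and Acsl3 (-2.81 ± 0.47, adjusted p = 9.0e-05) each had a more negative difference, nipple minus TEB, in basal-like than in ER+ cells. For Acsl3 this was the ER+ difference alone, since its basal difference was -0.16. The term was negative for 27 of the 31 members, a count given without the share of all genes and so only a description. An unadjusted p under 0.05 was reached by 19 of 31, against 19.8% of all genes. Against ER- cells 0 of 27 members passed (3 at an unadjusted p under 0.05, against 13.02% of all genes; 2.08% of all genes passed), so the basal and ER- differences were not shown to be unequal. Against fibroblast-like cells 2 of 28 passed, Scd2 (-3.32 ± 0.91, adjusted p = 0.033) and Fads1 (-3.96 ± 1.14, adjusted p = 0.047), with 3.16% of all genes. The 3 terms share the basal-like cells.

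Summed over the arm, the sterol genes of basal-like cells came to 453 ± 115 CPM (SD) in 4 nipple, 596 ± 134 CPM in 6 duct and 992 ± 191 CPM in 6 TEB fragments. The lowest TEB fragment, at 713 CPM, exceeded the highest nipple fragment, at 557 CPM, and 1 duct fragment reached 827 CPM. The ER+ sums showed less spread by location, at 1018 ± 75.0, 888 ± 140.1 and 854 ± 141 CPM, with a nipple mean close to that of TEB basal-like cells. In ER- cells the sterol arm came to 505 ± 120 CPM in 4 nipple, 794 ± 185 CPM in 6 duct and 732 ± 241 CPM in 4 TEB fragments, and in fibroblast-like cells to 562 ± 161, 676 ± 88.4 and 781 ± 165 CPM in 4, 4 and 5 fragments. The fatty acid sum of basal-like cells was 499.5 ± 90.0, 454 ± 79.4 and 609 ± 82.9 CPM, and its nipple and TEB fragments overlapped. In ER+ cells it came to 582 ± 100.3, 425 ± 63.5 and 373 ± 47.2 CPM, with the lowest nipple fragment (472 CPM) above the highest TEB fragment (438 CPM), in ER- cells to 339 ± 108, 451 ± 97.9 and 507 ± 138 CPM, and in fibroblast-like cells to 817 ± 95.9, 685 ± 131 and 817 ± 159.6 CPM. The fibroblast-like cells thus held the highest sums of this arm at every location.

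**Figure D4:**
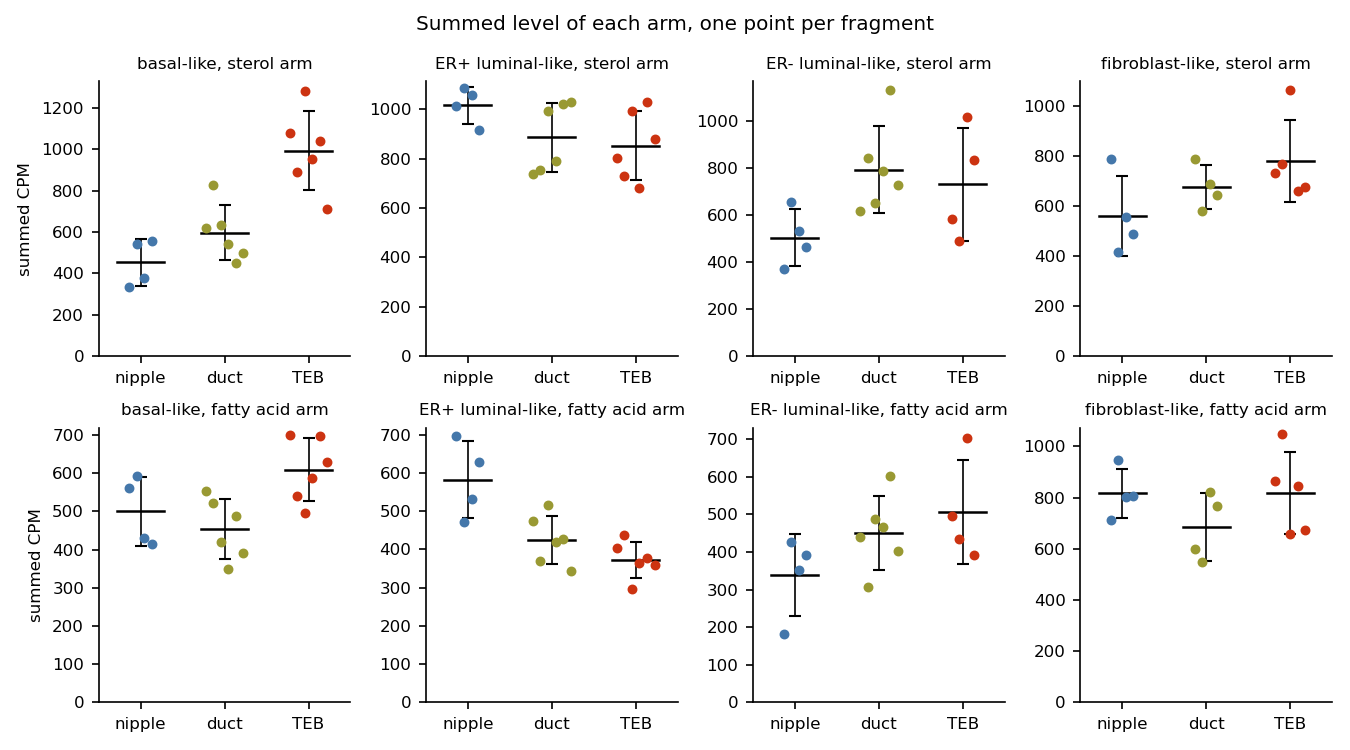
Summed CPM of the 18 sterol genes (top) and of the 12 fatty acid genes (bottom) in the 4 classes, one point per fragment with mean (line) and SD (bars); each panel has its own axis from 0. The sterol sum of basal-like cells runs from 332 to 557 CPM in nipple and from 713 to 1281 CPM in TEB fragments, and the fatty acid sum of ER+ luminal-like cells from 472 to 697 CPM in nipple and from 297 to 438 CPM in TEB fragments; in the other panels nipple and TEB overlap.

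Between classes the levels are a description, since the classes were cut from the same cells. Of 28 members that could be compared, 2 were higher in ER+ than in basal-like cells in all 16 fragments, Ebp (217.8 against 49.7 CPM) and Fdps (162 against 61.6 CPM), where 13.2% of 7989 genes were one-sided in either direction. Between ER+ and ER- cells 3 members, Ebp, Fdft1 and Sc5d, the last an oxidase that sets the sterol double bond, were higher in ER+ cells in all 14 fragments (7.26% of genes). None of the 28 was one-sided between basal-like and ER- cells (6.75% of genes). Fibroblast-like cells had Insig1 (123 against 19.6 CPM) and Scd1 (130.3 against 20.9 CPM) above basal-like cells in all 13 fragments (10.9% of genes). Against ER+ cells they had Insig1, Scd1, Fasn, Hmgcs1 and Cyp51 higher and Ebp lower in all 13 fragments (21.9% of genes). Against ER- cells they had Insig1, Scd2, Acsl3, Hmgcs1 and Cyp51 higher in all 12 fragments (14.8% of genes). The members' counts were near these shares of all genes and are no result about the members.

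The order of levels, as means ± SD over fragments, differed by gene. Ebp was highest in ER+ cells, at 217.8 ± 58.0 CPM, and the other classes, at 49.7 ± 23.7 to 61.8 ± 30.1 CPM, did not differ beyond their spread. Cyp51 was highest in fibroblast-like cells at 132 ± 41.0 CPM, followed by basal-like cells at 70.6 ± 44.3 CPM, with ER- and ER+ cells at 36.1 ± 28.7 and 29.9 ± 15.2 CPM within each other's spread. Fasn was at 96.9 ± 42.4 CPM in fibroblast-like cells and at 20.5 to 32.2 CPM in the epithelial classes. Elovl1 had nearly the same mean in the 4 classes, at 160.4 to 174 CPM. Fads1 was nearly absent from ER+ cells, at 4.49 ± 6.89 CPM, and stood at 48.5 ± 31.96 CPM in ER- cells, 35.3 ± 26.9 CPM in basal-like cells and 35.0 ± 25.4 CPM in fibroblast-like cells. Fads2 followed the same order in the epithelium, with 17.4 ± 15.3, 12.7 ± 13.2 and 1.96 ± 4.35 CPM in ER-, basal-like and ER+ cells, and it was at 2.79 ± 4.44 CPM in fibroblast-like cells. Acsl3 was lowest in ER- cells, at 19.3 ± 21.1 CPM against 73.3 to 104 CPM in the other classes. Acaca, the acetyl-CoA carboxylase, and Acss2, which makes acetyl-CoA from acetate, stayed low in the 4 classes, at 3.90 to 26.4 CPM and 4.30 to 7.05 CPM.

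**Figure D5:**
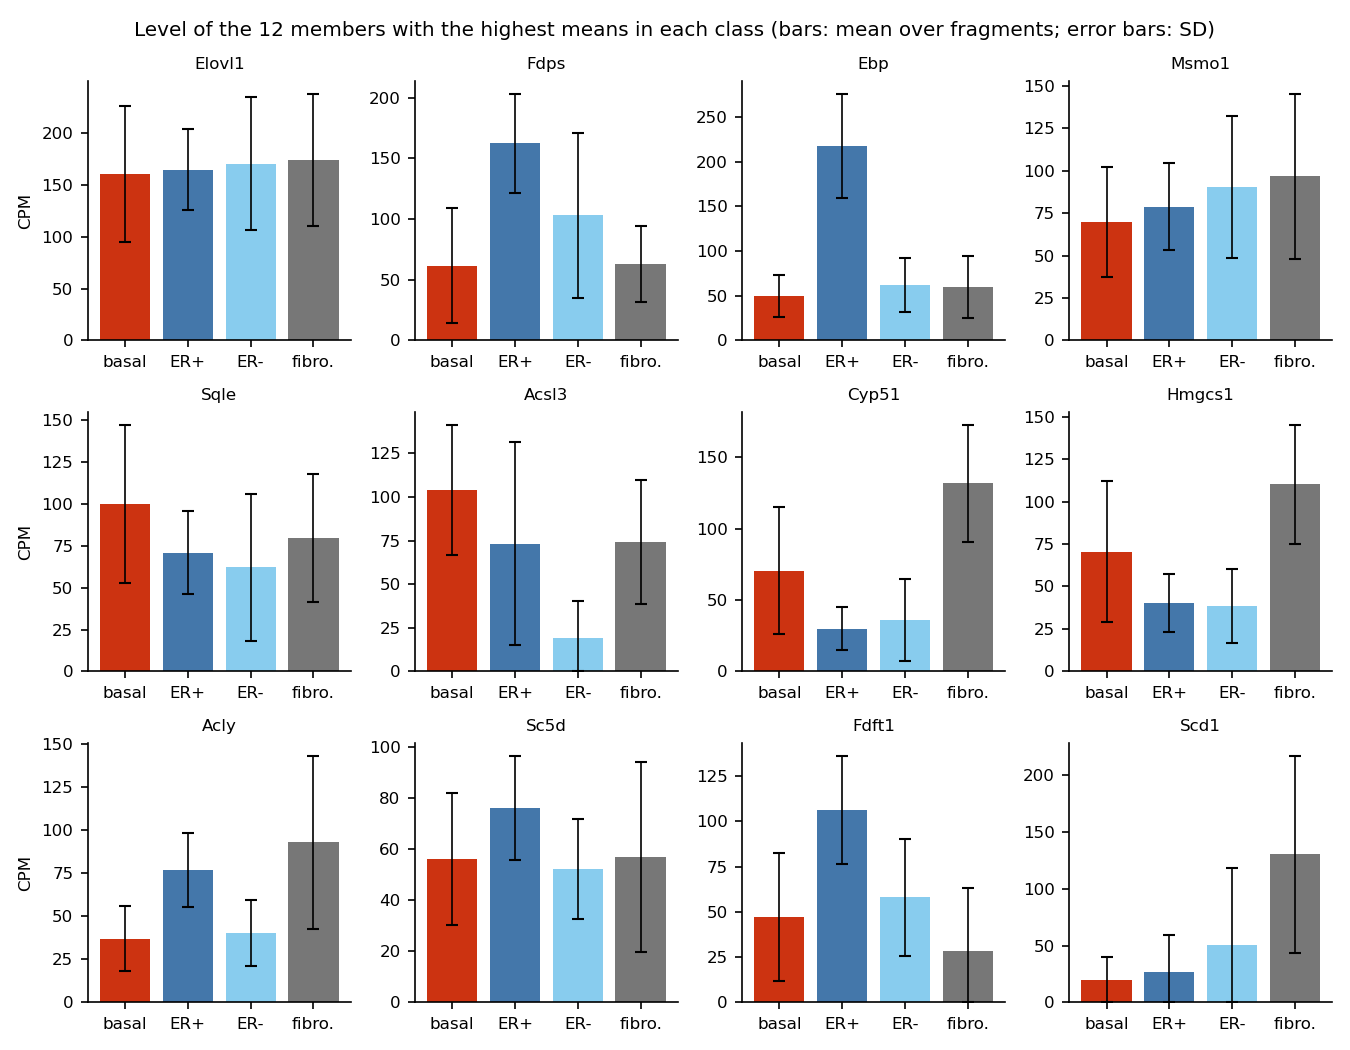
Mean CPM over fragments (bars, with SD as error bars, cut at 0) of the 12 members with the highest means in basal-like (16 fragments), ER+ luminal-like (16), ER- luminal-like (14) and fibroblast-like cells (13); each panel has its own axis from 0. Ebp, Fdps and Fdft1 peak in ER+ cells, Cyp51, Hmgcs1 and Scd1 in fibroblast-like cells, and Elovl1 is level.

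A list of 58 further genes of both pathways was read from the same fits. In basal-like cells between nipple and TEB, 1 of 14 tested of 20 sterol genes was higher in TEBs (Npc1, which exports cholesterol from lysosomes, -2.24 ± 0.69), and of 20 tested of 38 fatty acid genes 3 were higher in TEBs and 1 in the nipple. These counts were near the 9.81% and 8.90% of all genes called in the same directions and are no result about the list. The smallest p belonged to Fabp5, a fatty acid binding protein, at means of 192 CPM in nipple, 122 CPM in duct and 1085 CPM in TEB fragments (nipple minus TEB -2.50 ± 0.30, adjusted p = 8.0e-07; duct minus TEB -3.18 ± 0.27, adjusted p = 2.0e-09). Fabp5 was also among the genes that led the TEB basal-like cluster, so this value is not independent of the grouping. Npc2, the partner of Npc1, was higher in TEBs than in ducts, at 200.4 against 101 CPM (-0.99 ± 0.27, adjusted p = 0.014). In ER+ cells between nipple and TEB, Dgat2 (1.22 ± 0.32), which completes triglycerides, and Hsd17b12 (0.75 ± 0.22), a reductase of elongation, were higher in the nipple, and Lipe (-1.96 ± 0.55), a hormone-sensitive lipase, was higher in TEBs, with adjusted p-values of 0.016, 0.033 and 0.027, of 14 sterol and 20 fatty acid genes of the list tested, where 2.59% and 2.94% of all genes were called in these directions. None of the list was called in ER- or fibroblast-like cells.

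Within a class, members of an arm did not vary together strongly between fragments once the location means were taken out. In basal-like cells the median correlation over pairs of the 14 sterol genes was 0.11 and over pairs of the 10 fatty acid genes 0.12, over 16 fragments, against 0.00277 for all genes. In ER+ cells the medians were 0.085 and -0.022. These correlations share libraries and depth and are given as a description.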

How the data were processed

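Mammary cells of 16 dissected fragments (4 nipple, 6 duct, 6 TEB) were profiled by the study. The authors deposited 1 table of raw UMI counts per gene and cell; per the labels' processing notes, Trim Galore, FastQC, UMI-tools, STAR and featureCounts were used with build mm10, with versions and strand setting not given in the sources used here; the study's methods limit STAR to reads with a single mapped place. Fragment and group came from the labels.

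Cells with 5000 to 120000 UMIs, 200 to 6000 genes and under 5% spike-in UMIs were kept (1318 of 1419). Doublets were limited by sorting and the upper cut on UMIs; no caller was run. Cells were clustered (Seurat 5.3.0, 2000 variable genes without the pathway genes, 14 components, resolution 0.5, with spike-in share, cycle scores and gene number regressed out) and each cluster took the name whose marker list had the highest mean z-score; a cluster led by mast cell genes (71 cells) and one led by pericyte genes (19 cells) stayed unnamed, and 78 myeloid-like cells were not used. For each class, counts were added up within a fragment that gave at least 5 cells, and tested with edgeR 4.0.16 (R 4.3.3; TMM, filterByExpr, robust quasi-likelihood fit, the 3 locations in 1 fit), with Benjamini-Hochberg adjustment over all genes tested and a threshold of 0.05. All p-values are two-sided. T31 and T43 were left out of ER- sums, and D31, D51 and T43 of fibroblast-like sums, for too few cells. DESeq2 1.42.0, other scalings, filters, groupings and the omission of each fragment served as alternatives. Scripts were tested on simulated data. Intervals and floors cover counting error only.

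Named genes were, per class, the 3 called members of each arm with the smallest p, the regulators, and the 3 members of each arm with the highest mean; of other pathway genes, at most 3 called ones per class (some are not reported here); other members called were also described. The members and lists were chosen with earlier results of these data known. From the same cells the study reports lipid metabolism among the pathways of TEB basal cells. The higher TEB levels of these genes are therefore not an independent finding. Duct and TEB fragments share the title numbers 31 and 32. The correlation of same-numbered deviations was -0.0059 to 0.0019 in basal-like and -0.0144 to -0.0047 in ER+ cells (2 pairs each). In ER- cells the 1 such pair was at 0.0445, above the 23 other pairs (-0.0510 to 0.0351). In fibroblast-like cells it was at 0.0406, within the range of the others. So few pairs cannot decide whether the numbers pair fragments, and they were not taken to do so.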

Additional observations from a re-analysis of the deposited data

Results flagged for a closer look

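Of 119 groups of 4 to 6 fragments examined, 9 held a fragment far from the others by Dixon's criterion, and chance alone sets apart about 1 in 20 groups. In basal-like cells these were Scd2 in N21 at 27.9 CPM (next 3.83 CPM), Insig1 in N22 at 23.2 CPM (next 5.97 CPM) and Insig1 in D51 at 33.1 CPM (next 12.1 CPM). In ER+ luminal-like cells they were Srebf1 in D61 at 66.4 CPM (next 45.4 CPM), and Srebf1 and Acly in T32 at 75.0 and 144 CPM (next 46.8 and 83.9 CPM). In ER- luminal-like cells they were Insig1 in N23 at 4.81 CPM, where the other nipple fragments had none, and Acly in T34 at 59.4 CPM (next 29.6 CPM). In fibroblast-like cells Msmo1 stood apart in N21 at 131 CPM (next 60.0 CPM).

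The difference between nipple and TEB was unequal between the basal-like class and the ER+ class by the class by location term for Scd2 (-5.22), Acsl3 (-2.81), Fdps (-2.52) and Cyp51 (-2.21), and between basal-like and fibroblast-like cells for Fads1 (-3.96) and Scd2 (-3.32), each on the log2 scale with an adjusted p under 0.05 in edgeR.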

How the results depend on the processing

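The count of members called between nipple and TEB in basal-like cells was 12 and depended on depth and on the cells used: 23 with spike-in scaling, 7 with fragments of at least 10 cells, 1 with cells in G1 alone and 1 with cells thinned to 5000 UMIs, where only 4 members stayed testable. Between nipple and duct (1 in the report) it was 6 with spike-in scaling, 2 with DESeq2 and 0 with thinning, with G1 cells or with the 2 locations fitted alone; between duct and TEB (4) it was 13, 7 with DESeq2, 0 thinned, 2 in G1 and 1 with the title number as a replicate block, which rests on 4 fragments. Of single genes, Elovl1 between nipple and TEB turned to -0.23 and Ebp to -1.21 with spike-in scaling, where the median of all genes was -1.35 (-0.90 in ER- cells). In ER+ cells the count between nipple and TEB (2) was 1 thinned, in G1 and with other wells' UMIs subtracted; between nipple and duct (1) it was 0 with spike-in scaling, thinning, at least 10 cells or a resolution of 1; between duct and TEB (1) it was 0 thinned. In ER- cells (0) it was 5 with spike-in scaling, 1 with DESeq2 and 1 with subtraction between nipple and TEB, and 3 with spike-in scaling between nipple and duct. In fibroblast-like cells (0) DESeq2 called 1 for nipple against duct and 1 for duct against TEB. The class by location counts (4, 0 and 2) became 7, 0 and 1 without the fragment block and 2, 0 and 0 thinned. One-sided members between basal-like and ER+ cells (2) were 1 thinned, with subtraction, at a resolution of 1 and with marker-list classes; between basal-like and ER- cells (0) 1 in G1; between basal-like and fibroblast-like cells (2) 0 thinned, 4 with at least 10 cells, 5 in G1 and 0 with marker-list classes; between ER+ and ER- cells (3) 1 thinned, at a resolution of 1 and with marker-list classes; between ER+ and fibroblast-like cells (6) 1 thinned; and between ER- and fibroblast-like cells (5) 0 thinned and 9 in G1. Thinning and G1 leave fewer genes and cells to test; the cause of the other changes was not tested.

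Leaving out 1 fragment at a time gave 8 to 12 calls between nipple and TEB, 0 to 1 between nipple and duct and 3 to 6 between duct and TEB in basal-like cells, 2, 0 to 2 and 1 in ER+ cells, 0 to 1, 0 and 0 to 1 in ER- cells, and 0 in fibroblast-like cells. The title numbers shared by ducts and TEBs (31 and 32) were not taken to pair fragments. The replicate block could not be fitted in ER- and fibroblast-like cells, where T31 and D31 had too few cells. In ER+ cells the block left 1 member called. RLE factors, no count filter and the pathway genes among the variable genes changed none of these counts by over 1.5 times. Of the single-gene values under alternatives, 3047 kept direction and side of the threshold, 36 lost a call, 21 gained one and 2 turned.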
